A study of Mus musculus with 8 samples.

Results

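Versican and the small leucine-rich proteoglycans were examined as a group of 10 genes (Vcan, Dcn, Bgn, Aspn, Lum, Fmod, Prelp, Omd, Ogn and Epyc), chosen by symbol from the 32285 genes of the count tables. The data were single-nucleus RNA sequencing libraries of petrous bone (PTB), the part of the temporal bone that encloses the inner ear and, in the mouse, houses the paraflocculus and flocculus (PF/F) of the cerebellum. Mice were taken at P5.5 and were either WT or Tbx1+/-, that is, with 1 working copy of the transcription factor gene Tbx1 in all tissues, and the WT mice were littermates. Each library was 1 pool of 5 mice, and 2 PTB libraries of each genotype were made, with replicate numbers 1 and 2 from separate experiments on separate sets of mice. The 4 PF/F libraries of the same design served only as a comparison.

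Versican is a large chondroitin sulfate proteoglycan that binds hyaluronan and fills the loose matrix of embryonic mesenchyme. The small leucine-rich proteoglycans are a family of compact matrix proteins, most of which sit on collagen fibrils and set their diameter and spacing. Decorin (Dcn), biglycan (Bgn) and asporin (Aspn) form class I, lumican (Lum), fibromodulin (Fmod), prolargin (Prelp) and osteoadherin (Omd) class II, and osteoglycin (Ogn) and epiphycan (Epyc) class III. In bone and cartilage, biglycan and osteoadherin are known from mineralizing matrix, epiphycan from growth cartilage, and decorin and fibromodulin from tendon and other fibrous tissue.

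The genes lie in a few clusters. On GRCm38, Dcn (chr10:97479609-97518143), Lum (chr10:97565128-97572703) and Epyc (chr10:97644068-97682454) follow one another on the plus strand, and so do Aspn (chr13:49544443-49567565), Omd (chr13:49582462-49592822) and Ogn (chr13:49608046-49624501). Aspn, Omd and Ogn all lie within the bounds of Cenpp (chr13:49464023-49652785), a centromere protein gene on the opposite strand. The library kit keeps strand, but the strand setting of the counting was not given in the sources used here, so reads from Cenpp introns and from these 3 genes may not be separable. Vcan (chr13:89655312-89742509, minus strand) lies apart on the same chromosome, Prelp (chr1:133910304-133921414, minus strand) and Fmod (chr1:134037254-134048277) are neighbours, and Bgn (chrX:73483602-73495933) is X-linked. Vcan overlaps the antisense gene Gm4117, Prelp the antisense gene Gm15851, and Epyc the long noncoding RNA gene Gm10754, with the same limit on their counts.

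RefSeq promoters (GRCm38.p6) were matched for 8 of the 10 members, all but Dcn and Lum. The 250 bases before the start are shown for Vcan and for Aspn, Omd and Ogn, since the latter are neighbours. By mean level Aspn and Ogn were highest in the same type of nuclei and Omd in another. Capitals mark matches, on either strand, to TATAAA (the TATA box), TGTGGT (a RUNX core), AACAAT (a SOX core) and GGGCGG (an Sp1 core). Vcan is chr13:89742513-89742762 on the minus strand, Aspn is chr13:49544193-49544442, Omd is chr13:49582212-49582461 and Ogn is chr13:49607765-49608014, all 3 on the plus strand.
Vcan: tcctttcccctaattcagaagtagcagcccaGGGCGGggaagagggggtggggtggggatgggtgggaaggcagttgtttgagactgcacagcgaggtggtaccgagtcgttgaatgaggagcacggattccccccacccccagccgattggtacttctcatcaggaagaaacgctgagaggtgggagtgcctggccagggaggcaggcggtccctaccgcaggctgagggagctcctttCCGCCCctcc
Aspn: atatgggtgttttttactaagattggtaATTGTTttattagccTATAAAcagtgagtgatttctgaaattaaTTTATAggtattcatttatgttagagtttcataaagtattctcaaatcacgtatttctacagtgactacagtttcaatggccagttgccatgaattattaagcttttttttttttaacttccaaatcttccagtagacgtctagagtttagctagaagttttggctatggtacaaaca
Omd: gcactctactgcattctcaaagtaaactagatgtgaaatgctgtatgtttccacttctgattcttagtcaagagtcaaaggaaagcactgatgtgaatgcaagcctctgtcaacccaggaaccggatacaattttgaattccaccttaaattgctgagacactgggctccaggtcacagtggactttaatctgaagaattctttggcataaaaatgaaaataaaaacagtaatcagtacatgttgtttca
Ogn: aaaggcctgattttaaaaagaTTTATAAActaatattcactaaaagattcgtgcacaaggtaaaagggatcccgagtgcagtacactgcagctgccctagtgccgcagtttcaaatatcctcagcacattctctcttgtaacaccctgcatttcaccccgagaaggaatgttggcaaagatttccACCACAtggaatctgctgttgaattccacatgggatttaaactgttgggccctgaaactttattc

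The Vcan window was 62.4% G and C and held 2 Sp1 cores, whereas the Aspn, Omd and Ogn windows were 30%, 38.4% and 42% G and C. Aspn held 2 TATA boxes and 1 SOX core, Ogn 1 RUNX core and a stretch in which TATAAA was read on both strands, and Omd none of the 4 motifs. Among 32851 promoters of the same length, 12.4% held TATAAA, 14.0% TGTGGT, 9.42% AACAAT and 32.7% GGGCGG. These matches describe the sequence only.

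The study's annotation placed 31076 PTB nuclei in 15 types, among them connective tissue groups CT1 to CT4, chondrocyte progenitor groups CP1 to CP6, matured chondrocytes, hypertrophic chondrocyte/osteoblasts, osteoblasts, matured osteoblasts/osteocytes and osteoclasts. Libraries held 5981 to 9977 annotated nuclei with a median of 3853 to 4758 UMIs each, and 33515253 to 43752949 UMIs in all. Between 45 and 82 barcodes were shared by a pair of libraries. Levels are CPM, the UMIs of a gene as a proportion of all raw UMIs summed over the nuclei of a type, scaled to 1000000, given for WT replicate 1, Tbx1+/- replicate 1, WT replicate 2 and Tbx1+/- replicate 2 in that order, with the mean ± SD over the 4 libraries. Since the types are clusters of the same nuclei, levels by type are a description with no test, and a summed level does not separate fewer expressing nuclei from less RNA in each. Tbx1 itself stood at 38.9, 26.3, 39.4 and 35.7 CPM over all annotated nuclei, lower in the Tbx1+/- library of each experiment.

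Marker lists went with some labels and not with others. Osteoclast markers summed to 9691 ± 932 CPM in osteoclasts, osteocyte markers to 7835 ± 499 CPM in matured osteoblasts/osteocytes and chondrocyte markers to 7595 ± 2539 CPM in matured chondrocytes, the highest of the 15 types in each case. Connective tissue markers (Col3a1, Col1a1, Pdgfra, Twist2 and Lum, of which Lum is a member) were highest in osteoblasts at 10337 ± 3183 CPM, with 6449 ± 1387 CPM in CT1, and means of 3589 to 4636 CPM in CT2, CT3 and CT4 beside 4983 ± 1339.5 CPM in CP1. Col1a1 made up most of the osteoblast sum, and Col3a1 of this list was highest in CT1 (values below). CP1, labelled as chondrocyte progenitors, had osteoblast markers (Runx2, Sp7, Alpl, Bglap and Ibsp) at 11246 ± 444 CPM, the second of the 15 types, and chondrocyte markers at 1194 ± 161 CPM, beside 1281 ± 276 CPM in osteoblasts. CP6 had neuron and glia markers at 1724 ± 112 CPM and chondrocyte markers at 1110.4 ± 204 CPM. CP is therefore used as a name of the study's groups only, and so is CT, since the connective tissue list did not set CT2, CT3 and CT4 above CP1. Osteoclasts descend from blood cells and are not a usual source of these proteoglycans, so each member's level in osteoclasts of the same library was used as a floor for RNA from other cells. Osteoclasts also had the most muscle markers of the 15 types, at 784 ± 94.7 CPM, beside 152 ± 172 CPM in matured chondrocytes. The mix of the 10 genes in osteoclasts was near that in unannotated nuclei with immune or muscle markers: Vcan made up 10.7%, 14.3% and 14.7% of their summed UMIs on average and Dcn 21.4%, 22.2% and 20.4%, whereas in CT1 Vcan made up 43.8% and Dcn 17.6%. Other unannotated nuclei differed in Epyc, which made up 5.3% in osteoclasts and 5.3%, 6.9% and 5.1% with immune, muscle and endothelial markers. It made up 24.9% with epithelial markers, 19.4% with neuron and glia markers and 15.0% with no marker list.

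The study gave Vcan and Col3a1 as markers of connective tissue and used markers to name clusters. A high level in a CT group may therefore be partly built into the label. By level, Vcan was highest by far in CT1. There it stood at 1616, 1381, 1863 and 1238 CPM (1524 ± 274), 17.97 to 35.1 times the osteoclast level of the same library. The next type, CT3, had 309, 270, 328 and 271 CPM, so CT1 exceeded it in all 4 libraries by 1230 ± 247 CPM. CT3, CT2 (242 ± 74.7 CPM), CP1 (239 ± 43.2 CPM) and hypertrophic chondrocyte/osteoblasts (236 ± 39.9 CPM) followed with overlapping values. At the other end, CP5 (75.9 ± 30.2 CPM) and CT4 (79.9 ± 27.1 CPM) were above osteoclasts (77.3, 76.8, 53.1 and 43.1 CPM) in 3 of 4 libraries. So were CP3 and matured osteoblasts/osteocytes, at 30.5 and 40.6 CPM in Tbx1+/- replicate 2. Unannotated nuclei with immune markers had 171, 182, 169 and 98.1 CPM of Vcan. CP3, CP5, CP6, CT4, matured chondrocytes, osteoblasts and matured osteoblasts/osteocytes were below that in each library.

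The share of CT1 nuclei with at least 1 Vcan UMI was 76.7%, 76.7%, 78.3% and 65.3%, against 27.2%, 31.4%, 22.8% and 17.4% of osteoclasts, although osteoclasts were deeper (median 4963 to 7105 UMIs against 3328 to 4006 in CT1). After thinning every nucleus to 2000 UMIs the shares were 69.8%, 66.2%, 67.1% and 58.0% in CT1 and 12.8%, 14.1%, 6.11% and 6.82% in osteoclasts, with shallower nuclei left out. The share was therefore higher in CT1 than in osteoclasts in each library, while part of the CT1 nuclei held no Vcan UMI and part of the osteoclasts held some.

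**Figure D1:**
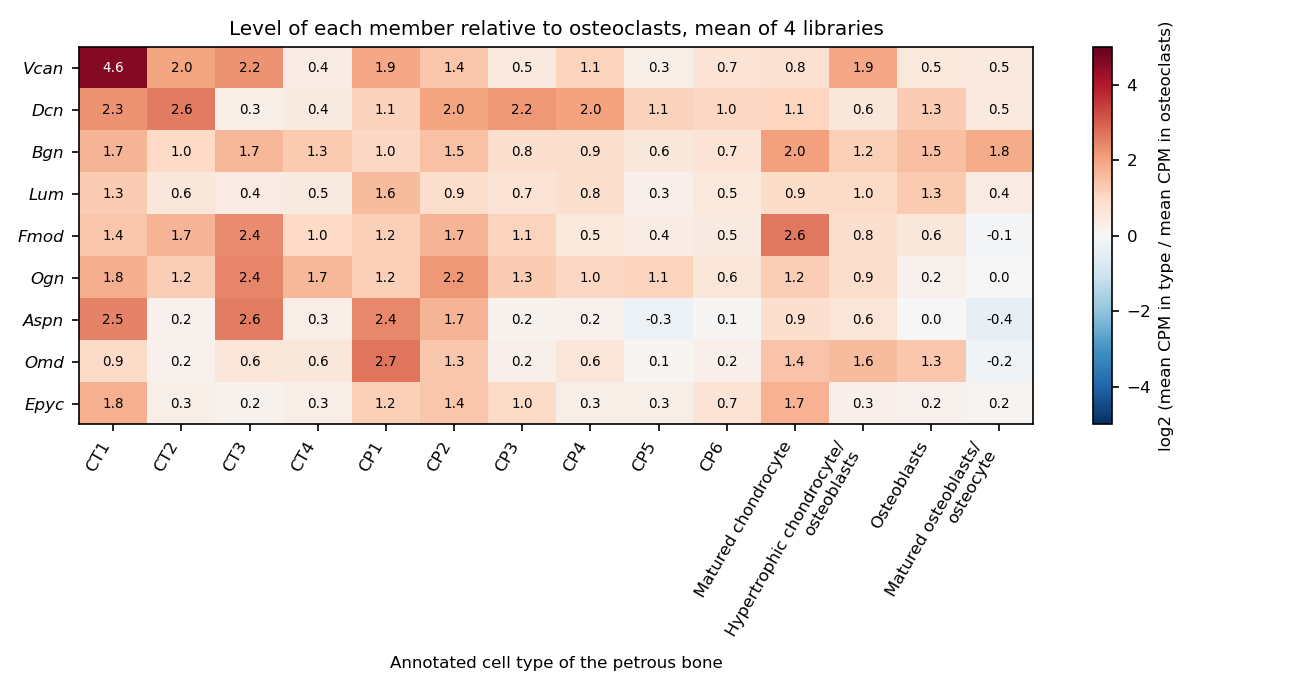
Heat map of the log2 ratio of each member's mean CPM in a type to its mean CPM in osteoclasts (mean of 4 libraries), with 9 members in rows (Prelp is left out for its few UMIs in osteoclasts) and the other 14 PTB types in columns. Vcan in CT1 is the darkest cell, Dcn is highest in CT2, and most cells of CP5 and matured osteoblasts/osteocytes are near 0.

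Of the class I members, Dcn was highest in CT2, at 1112, 554, 525 and 906 CPM (774 ± 284), where the WT and the Tbx1+/- values overlapped. CT1 (615 ± 109 CPM), CP3 (577 ± 116 CPM), CP4 (521 ± 87.4 CPM) and CP2 (512 ± 101 CPM) came next, and neighbours in this order did not differ beyond their spread. Osteoclasts had 191, 142, 80.2 and 104 CPM, and CT3 with 158 ± 38.8 CPM was the lowest of the other 14 types.

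Bgn showed a different order. Matured chondrocytes were highest with 457, 306, 274 and 329 CPM (342 ± 80.2), above matured osteoblasts/osteocytes (408, 274, 245 and 268 CPM) in all 4 libraries. That order depended on the scaling. With CPM scaled by edgeR's TMM factors, matured osteoblasts/osteocytes had the highest mean, at 331 CPM. CT1 (267 ± 43.9 CPM) and CT3 (261 ± 26.9 CPM) were next and overlapped. Bgn was above osteoclasts (116, 104, 43.8 and 68.5 CPM) in all 4 libraries in each of the other 14 types, the least in CP5. CP5 (186, 137, 73.8 and 91.3 CPM) was below unannotated nuclei with immune markers (205, 184, 115 and 143 CPM) in each library.

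Aspn was high in 3 types whose order was not fixed. CT3 had 413, 360, 361 and 286 CPM, CT1 had 406, 391, 255 and 285 CPM, and CP1 had 435, 331, 268 and 241 CPM. CP2 followed at 195 ± 30.9 CPM, below CP1 in all 4 libraries. Matured chondrocytes had 109 ± 17.1 CPM, and from CT4 (76.3 ± 35.2 CPM) down to matured osteoblasts/osteocytes (45.8 ± 29.0 CPM) no type was above osteoclasts (60.3 ± 20.1 CPM) in all 4 libraries.

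Among class II members, Lum and Omd shared CP1 as their highest type, and their pattern over the 15 types was the most alike of any pair (Pearson r = 0.86 on mean log2(CPM + 1), a description over types that share libraries). Lum stood at 519, 331, 238 and 267 CPM in CP1, above osteoblasts (464, 255, 215 and 216 CPM) in all 4 libraries. CT1 had 388, 326, 203 and 189 CPM and was below osteoblasts in 3 of 4 libraries. Osteoclasts had 180, 132, 68.9 and 77.4 CPM, so CP1 was only 2.51 to 3.46 times that floor. Lum was above the floor in all 4 libraries in every other type, by as little as 1.14 to 1.30 times in CP5. Unannotated nuclei with immune markers had 269, 224, 104 and 136 CPM of Lum. That was above CP5 (205, 171, 86.1 and 90.0 CPM) in each library, so a level above osteoclasts does not by itself show expression.

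Omd was also highest in CP1, with a steeper step to the next type. Its 325, 166, 197 and 212 CPM there were 4.98 to 7.84 times the osteoclast level and exceeded hypertrophic chondrocyte/osteoblasts (134, 84.1, 110 and 96.2 CPM) in all 4 libraries. Osteoblasts (89.0 ± 24.4 CPM) and CP2 (88.4 ± 21.1 CPM) overlapped, and matured osteoblasts/osteocytes were the lowest type at 30.6 ± 7.07 CPM.

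Fmod was highest in matured chondrocytes, at 177, 47.9, 68.0 and 73.6 CPM, but that mean of 91.7 ± 58.1 CPM rested on WT replicate 1. Without that library CT3 was highest, with 91.3, 75.3, 68.6 and 68.7 CPM over the 4 libraries and 4.65 to 6.10 times the osteoclast level. CT2 (48.3 ± 8.19 CPM) and CP2 (47.6 ± 13.9 CPM) were next and overlapped. Prelp was low throughout, with 27.1, 30.0, 14.6 and 12.8 CPM in matured chondrocytes and 10.7 ± 1.31 CPM in CP2. In osteoclasts Prelp rested on 21, 6, 1 and 5 UMIs, so no ratio to them is given.

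Of class III, Ogn had the clearest order. CT3 was highest at 498, 379, 334 and 327 CPM, above CP2 (474, 273, 265 and 258 CPM), which was above CT1 (363, 260, 193 and 195 CPM), which was above CT4 (349, 257, 139 and 163 CPM), each in all 4 libraries. Osteoblasts (82.8 ± 33.7 CPM) and matured osteoblasts/osteocytes (69.5 ± 35.3 CPM) were near the osteoclast level (71.4 ± 36.6 CPM). In Epyc none of the 14 neighbouring pairs of types kept its order in all 4 libraries. CT1 had 150, 113, 104 and 76.5 CPM and matured chondrocytes 91.8, 198, 72.8 and 71.3 CPM, against 50.1, 39.7, 23.2 and 18.1 CPM in osteoclasts.

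Matured chondrocytes, the highest type of Bgn, Fmod and Prelp by mean CPM without further scaling, were the smallest group over the 4 libraries together, with 147, 48, 138 and 254 nuclei. Their erythroid markers summed to 11571 CPM in WT replicate 2 and to 821 to 1048 CPM in the other 3 libraries. The part of this in the members' levels was not tested.

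**Figure D2:**
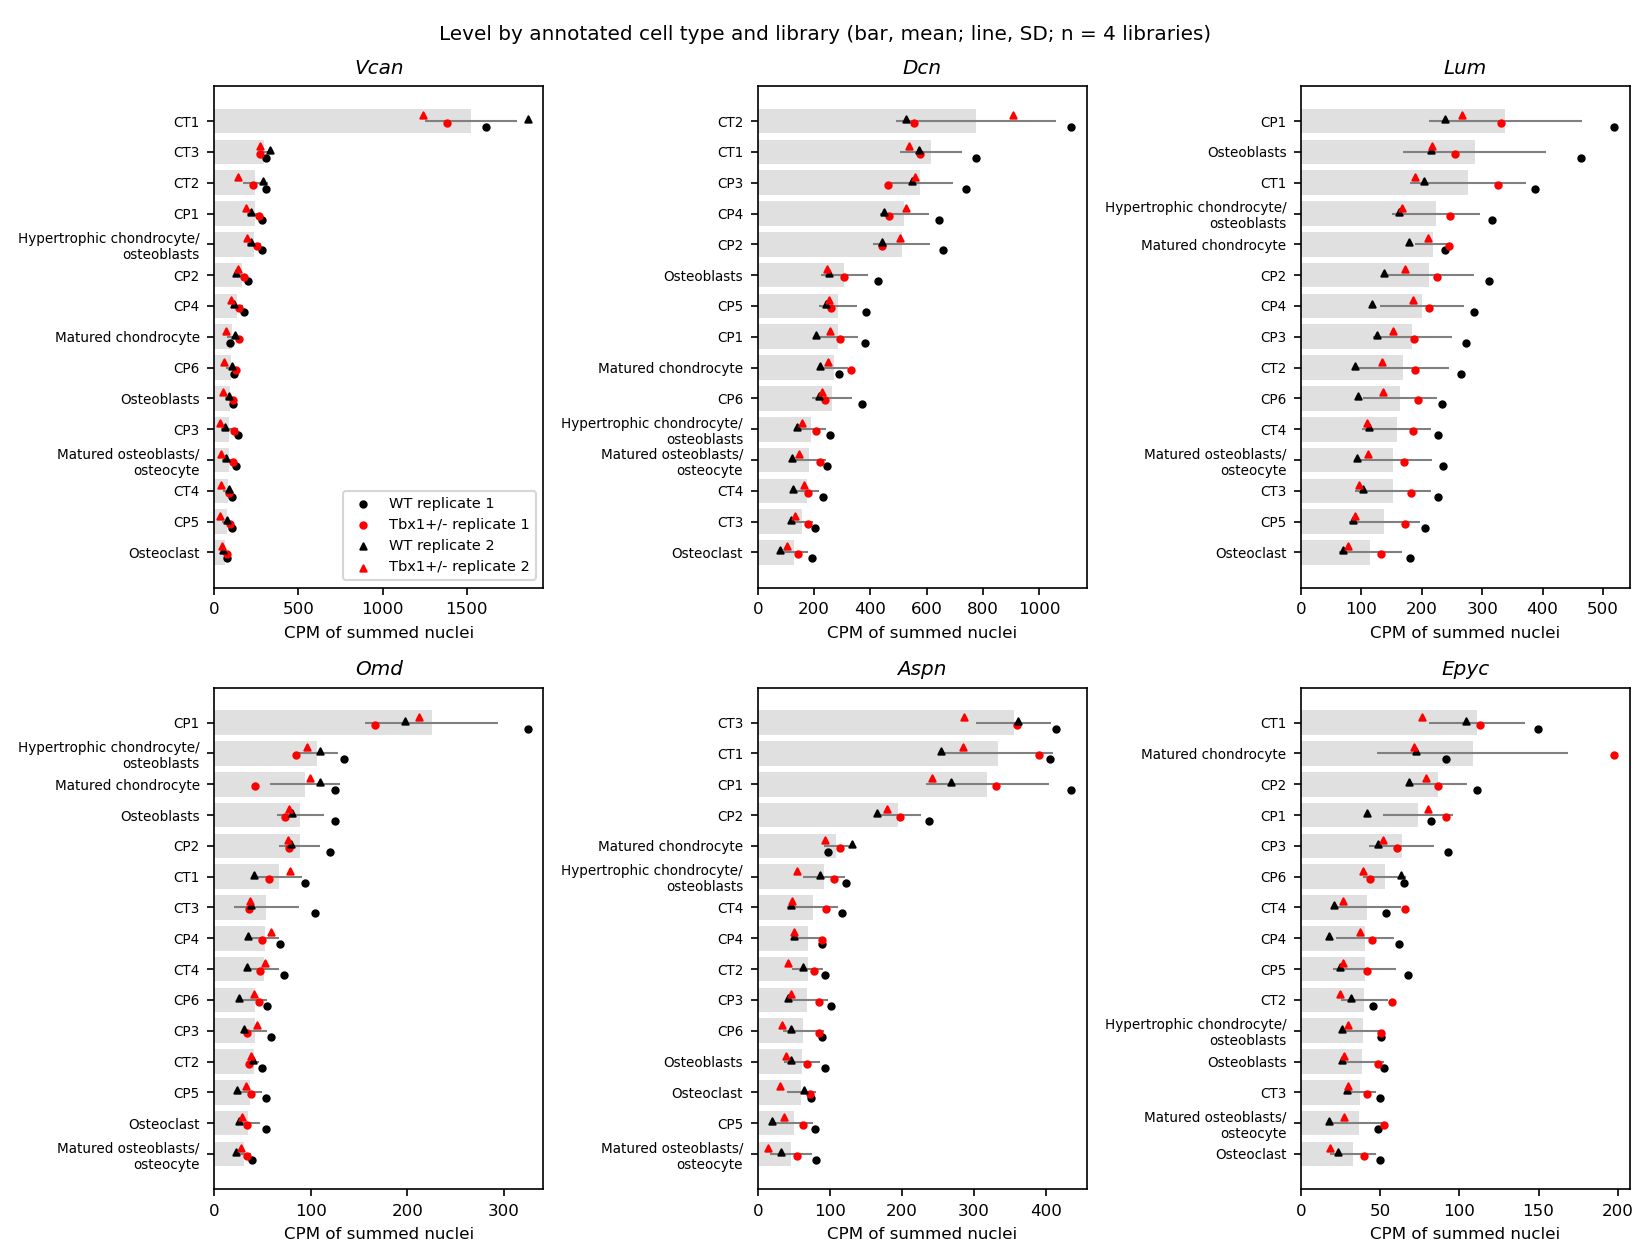
CPM of the summed nuclei for Vcan, Dcn, Lum, Omd, Aspn and Epyc in each of the 15 PTB types, ordered by the mean within each panel. Bars are the mean and lines the SD of 4 libraries, black marks WT, red marks Tbx1+/-, circles replicate 1 and triangles replicate 2. Vcan in CT1 lies at or above 1238 CPM in all 4 libraries and every other type at or below 328 CPM.

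The genes whose pattern over the 15 types was most like a member's were sought among those with at least 10 CPM in 1 type or more. For Vcan they were AW551984 (r = 0.91), elastin (Eln, r = 0.90) and the Wnt pathway agonist Rspo2 (r = 0.89). For Aspn they were Map1b (r = 0.89), Mest (r = 0.88) and the matrix protein gene Thbs2 (r = 0.87), and for Ogn Tpst1 (r = 0.92), Myl9 (r = 0.91) and the collagen prolyl hydroxylase gene P4ha3 (r = 0.91). For Dcn they were Zfp383 (r = 0.89), Wnt16 (r = 0.88) and Cybrd1 (r = 0.87), for Bgn Snx4 (r = 0.93), Utrn (r = 0.91) and Rnf144a (r = 0.89), and for Epyc Cluap1 (r = 0.90), Chst12 (r = 0.89) and Txndc9 (r = 0.87). For Lum they were Intu (r = 0.90), Omd (r = 0.86) and Bola2 (r = 0.85), for Fmod Taf1 (r = 0.91), E2f6 (r = 0.90) and Itm2a (r = 0.89), for Omd Syncrip (r = 0.92), Smim15 (r = 0.92) and Rufy3 (r = 0.91), and for Prelp Gstm5 (r = 0.90), Nenf (r = 0.90) and Erg28 (r = 0.88). With 15 points and so many genes, values of this size describe a ranking only.

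Chromosomal neighbours were not all alike in pattern. Over the 15 types r was 0.73 for Ogn and Aspn, 0.59 for Aspn and Omd and 0.24 for Ogn and Omd. On chromosome 10 it was 0.61 for Lum and Epyc, 0.49 for Dcn and Epyc and 0.40 for Dcn and Lum, and for Fmod and Prelp on chromosome 1 it was 0.79. The 38 pairs from different loci ranged from 0.08 for Dcn and Bgn to the 0.86 of Lum and Omd, with a median of 0.45.

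The partners of versican differed in where they were highest. Has2, which makes hyaluronan, had 192 ± 42.8 CPM in CT1 and 48.3 ± 22.6 CPM in its next type, matured chondrocytes. Aggrecan (Acan, 1333 ± 345 CPM) and link protein (Hapln1, 1353 ± 725 CPM), which form the hyaluronan aggregates of cartilage, were highest in matured chondrocytes and had 74.8 and 37.4 CPM in CT1. Cd44, a hyaluronan receptor, was highest in osteoclasts (585 ± 33.7 CPM), with 130 ± 12.7 CPM in CT1.

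Of the proteases that cleave versican, Adamts1 (125 ± 35.5 CPM) and Adamts5 (117 ± 11.6 CPM) were highest in CT2, and Adamts9 in hypertrophic chondrocyte/osteoblasts (985 ± 92.6 CPM). Xylt1, which starts glycosaminoglycan chains, was highest in matured chondrocytes (1193 ± 334 CPM). The chondroitin sulfate enzymes Chsy1 (523 ± 68.2 CPM) and Chst11 (687 ± 58.2 CPM) were highest in matured osteoblasts/osteocytes, and the dermatan sulfate epimerase gene Dse in CP6 (157 ± 3.84 CPM). None of these 4 enzymes was therefore highest where Vcan or Dcn was.

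Of the collagens, Col3a1 (1693 ± 518 CPM) and Col14a1 (685 ± 105 CPM) were highest in CT1, like Vcan. Col1a1 was highest in matured osteoblasts/osteocytes (9352 ± 3921 CPM) and osteoblasts (9349 ± 2921 CPM), and Col2a1 in matured chondrocytes (3664 ± 1270.2 CPM).

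Aspn, Omd and Ogn lie within Cenpp, so their levels were set beside those of Cenpp. In the PTB, Cenpp was highest in CP2 (222 ± 9.89 CPM), CT3 (204 ± 32.5 CPM) and CP1 (185 ± 35.6 CPM). CT3 was also the highest type of Ogn and, by mean only, of Aspn, whose order among CT3, CT1 and CP1 was not fixed. CP1 was the highest type of Omd, whereas CP1 was the 8th type of Ogn and CT3 the 7th of Omd. Over the 15 types r with Cenpp was 0.85 for Aspn, 0.78 for Ogn and 0.69 for Omd, against 0.21 to 0.72 for the other 7 members. In the PF/F, Aspn was at 108 ± 26.0 CPM in granule neuron progenitors (GNP), and in pericytes at 57.4 and 118 CPM in the WT and 128 and 399 CPM in the Tbx1+/- libraries, on 43 UMIs in 74 nuclei, so the order of these types rested on Tbx1+/- replicate 2. Cenpp was highest in the same types, at 407 ± 151 CPM in pericytes and 308 ± 39.4 CPM in GNP. Over the 16 PF/F types, pericytes included, r was 0.98 for Aspn, 0.93 for Omd and 0.92 for Ogn. Levels were not in a fixed ratio to Cenpp, since Aspn in CT1 was 334 CPM beside 142 CPM of Cenpp, and in GNP 108 CPM beside 308 CPM. The part of Cenpp reads in the counts of these 3 genes was not tested.

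**Figure D3:**
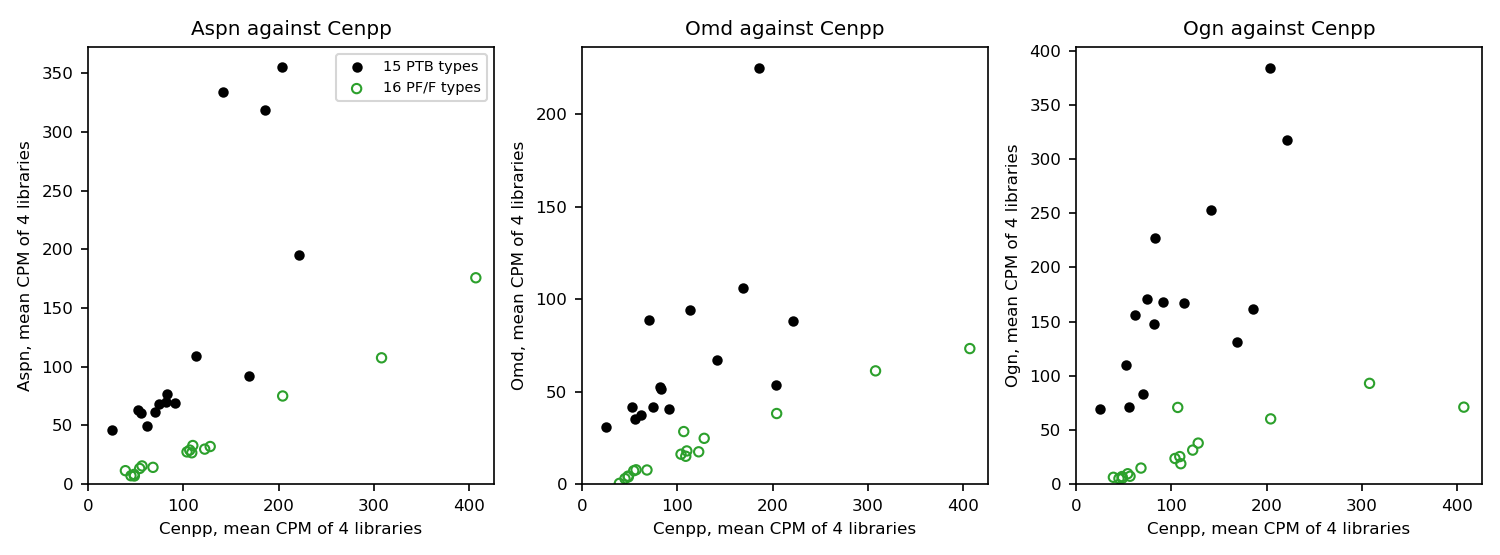
Mean CPM of 4 libraries of Aspn, Omd and Ogn (vertical axes) against that of Cenpp, the gene on the opposite strand that spans all 3 (horizontal axes), with 1 point for each of the 15 PTB types (filled) and 16 PF/F types (open). The PF/F points rise with Cenpp, and several PTB points, such as CT1 and CP1 for Aspn, lie far above them.

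In the PF/F the members fell in other cells. Vcan was highest in astroglia, at 745 to 995 CPM (878 ± 112), followed by GABA interneuron progenitors (497 ± 52.5 CPM), differentiated GABA interneurons (352 ± 39.6 CPM) and oligodendrocytes (328 ± 20.6 CPM). Dcn (581 ± 81.4 CPM), Lum (92.7 ± 32.8 CPM) and Fmod (16.3 ± 9.99 CPM) were highest in meningeal cells, and Dcn was at most 9.72 CPM on average in any other PF/F type. Bgn was highest in pericytes (179 ± 80.8 CPM). Prelp was highest in early rhombic lip cells (38.6 ± 4.71 CPM) and Epyc in GABA interneurons (28.4 ± 8.93 CPM), with at most 1.10 CPM of Epyc elsewhere. PTB and PF/F libraries were prepared from different tissues, so levels were not compared between them by a test.

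The study asked of the PTB and PF/F libraries whether loss of 1 Tbx1 copy altered the proportions of cell types and the expression of genes within them, and the members were tested for the latter in the PTB. No member was called in any type. Among 144 tests of a member in a type (Prelp was too low to be tested in 6 types) none passed an adjusted p of 0.05 with more than a 1.5-fold change in edgeR's quasi-likelihood test. Over all genes tested 0% were called in each of the 15 types, which equals the members' count. At an unadjusted p below 0.05 there were 4 of the 144, beside 3384 of 187198 tests over all genes, and DESeq2 called none and had 2 at that level. These p-values measure the spread between 2 pools of each genotype. The 2 pools came from separate experiments, so that spread includes the difference between experiments. With the replicate number as a block none was called and 24 of the 144 had an unadjusted p below 0.05 in edgeR. The shares of all genes for that fit are given with the processing alternatives.

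Over all annotated nuclei Vcan was at 349 and 218 CPM in the WT libraries and 265 and 119 CPM in the Tbx1+/- libraries, and the groups overlapped. Its log2 change was -0.57 ± 0.42 (SE, edgeR adjusted p = 1.00, with 0% of all genes called). Within each experiment the Tbx1+/- library was lower, by 0.40 on the log2 scale in replicate 1 and 0.87 in replicate 2. CT1, which held 14.0% to 54.0% of the Vcan UMIs, also made up less of the annotated nuclei in the Tbx1+/- library of each experiment, 10.1% against 13.2% in replicate 1 and 1.84% against 5.55% in replicate 2, and the part of this in the Vcan values was not tested. None of the 10 members was called or, without the replicate number as a block, had an unadjusted p below 0.05 in edgeR or DESeq2. With the block Vcan (unadjusted p = 0.0019, edgeR adjusted p = 0.90) and Aspn (unadjusted p = 0.0055, edgeR adjusted p = 0.90) were below it, beside 5.15% of all genes. Without the block all 10 log2 changes were below 0, with a median of -0.29 against -0.003 for all genes. Leaving out WT replicate 1 gave the opposite sign in 9 of the 10, all but Vcan, whose change was then -0.17.

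Vcan was the member with the most even direction across types. Its fitted log2 change was below 0 in all 15 types, from -0.70 ± 0.23 in CT2 (unadjusted p = 0.015, edgeR adjusted p = 1.00) to -0.06 ± 0.21 in CP2. In CT1 it was -0.41 ± 0.20 (edgeR adjusted p = 1.00). The Tbx1+/- library was the lower in both experiments in 11 of 15 types for Vcan and in 9 of 15 for Aspn. For Dcn that was so in 2 of 15 types, with 14 lower in replicate 1 and 2 lower in replicate 2, and Bgn, Lum, Fmod and Ogn showed the same contrast, with 13 to 15 types lower in replicate 1 and 1 to 3 in replicate 2. The 15 types share the same 4 libraries and their free RNA, so these counts are not of separate observations. Vcan in osteoclasts was 77.3 (WT) and 76.8 (Tbx1+/-) CPM in replicate 1, and 53.1 and 43.1 CPM in replicate 2. The share of all genes with such a direction across types was not counted.

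**Figure D4:**
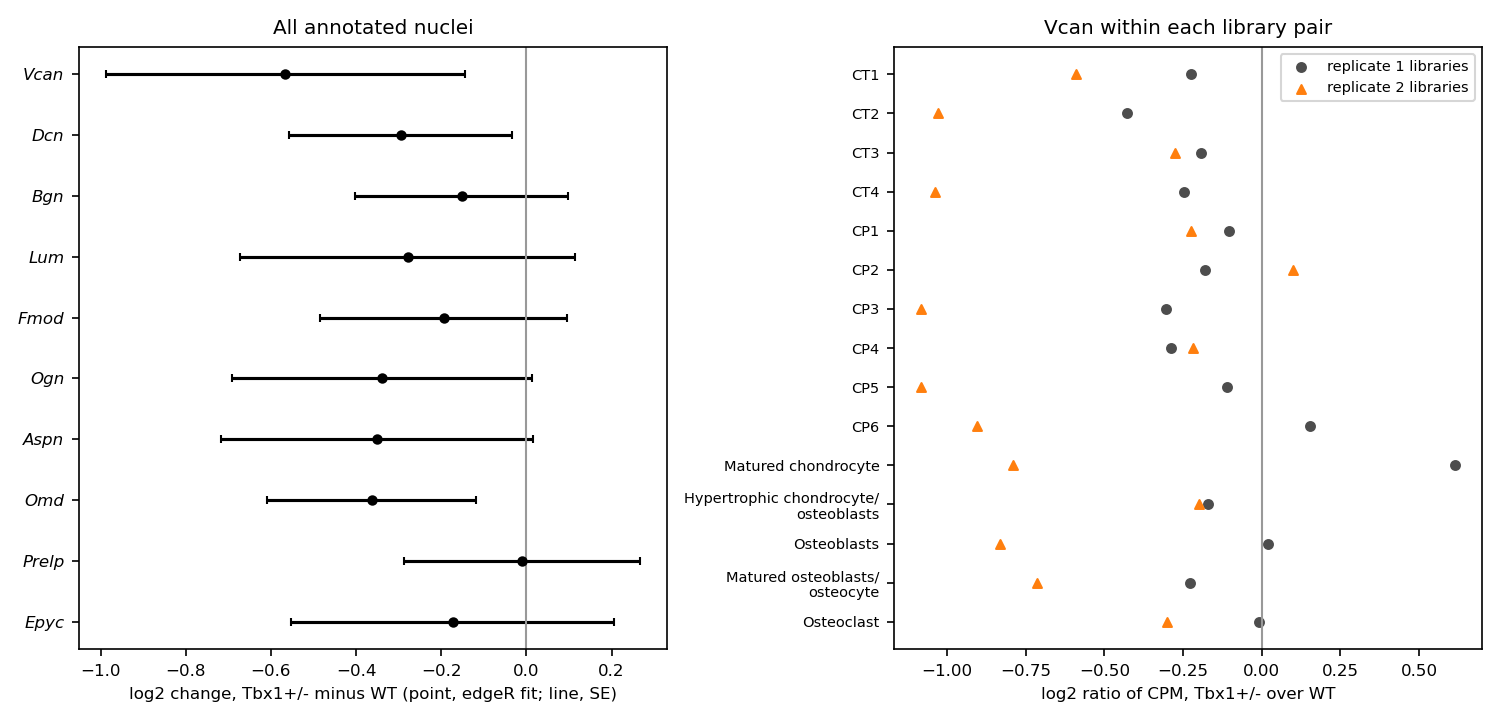
Left, edgeR log2 change (Tbx1+/- minus WT) of each member over all annotated nuclei, with its SE. Right, log2 ratio of Vcan CPM (Tbx1+/- over WT) in each of the 15 PTB types, within the replicate 1 libraries (circles) and the replicate 2 libraries (triangles). All 10 changes on the left lie at or below 0 and none was called, and on the right both marks lie below 0 in 11 of 15 types.

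Other members with an unadjusted p below 0.05 were Epyc in CP6 (log2 change -0.65 ± 0.20), Omd in CT3 (-0.96 ± 0.40) and Omd in hypertrophic chondrocyte/osteoblasts (-0.45 ± 0.15), each with an edgeR adjusted p of 1.00. Omd in CT3 was 104 and 38.1 CPM in WT and 35.7 and 37.1 CPM in Tbx1+/-, so it rested on WT replicate 1. Leaving out 1 library at a time gave 0 to 3 calls. Such a fit compares 1 pool with 2, takes its spread from the genotype that keeps 2 and assumes that the lone pool varies like them. Without WT replicate 1 the calls were Bgn and Epyc in CP1 and Bgn in osteoclasts, all higher in Tbx1+/-, beside 0.768% and 1.17% of all genes called higher in these types. Without WT replicate 2 they were Ogn in CP5, Omd in CT3 and Lum in osteoblasts, all lower, beside 0.145%, 0.313% and 0.199% of all genes called lower. Without Tbx1+/- replicate 1 they were Vcan in CP5 and Aspn in matured osteoblasts/osteocytes, both lower, beside 0.124% and 0.109%.

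Whether the genotype change differed between the CT groups and the CP groups was tested as an interaction. No member was called, beside 0% of all 18021 genes. The genotype change of Vcan was lower in CT than in CP, by a log2 difference of -0.71 ± 0.24 (unadjusted p = 0.018, edgeR adjusted p = 1.00) and Vcan was the 1 member below 0.05 before adjustment, in edgeR and in DESeq2. Without the filter on low counts Vcan was called (adjusted p = 0.018), beside 0.041% of all genes called lower. Without Tbx1+/- replicate 1, which left 1 Tbx1+/- pool, Vcan (-1.14 ± 0.16) and Epyc (-1.09 ± 0.18) were called, beside 0.904% of all genes called lower. The mix of nuclei within CT also differed: CT1 made up 64.5% and 31.5% of CT nuclei in the WT libraries and 56.5% and 15.2% in the Tbx1+/- libraries. The part of that mix in the interaction was not tested.

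Other genes of the pathway showed no calls by genotype, beside 0% of all 20250 genes tested over all annotated nuclei. The absence of calls therefore does not set these lists apart. Of the fixed lists, 15 of 16 lecticans, link proteins and hyaluronan genes, all 6 lectican proteases, all 21 glycosaminoglycan synthesis genes, all 9 other leucine-rich proteoglycans, all 10 collagens and all 6 TGF-beta genes were tested over all annotated nuclei, and none was called by edgeR.

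More members were called between the 2 replicate numbers, that is, between the separate experiments, than between genotypes. Over all annotated nuclei, with genotype in the model, 3 of 10 members were lower in replicate 2, beside 1.04% of all 20250 genes called lower. These were Vcan (log2 change -0.93 ± 0.13, edgeR adjusted p = 0.037), Aspn (-0.82 ± 0.08, adjusted p = 0.017) and Epyc (-0.82 ± 0.12, adjusted p = 0.044). All 10 changes were below 0, with a median of -0.60 against 0.01 for all genes. Some marker lists moved with them. Over all annotated nuclei connective tissue markers, Lum among them, summed to 7348 (WT) and 6013 (Tbx1+/-) CPM in replicate 1 and to 4507 and 4583 CPM in replicate 2. Col1a1 of that list was not called (-0.50 ± 0.15, edgeR adjusted p = 0.14). Muscle markers in CT1 summed to 129 and 161 CPM in replicate 1 and to 40.1 and 31.9 CPM in replicate 2. Chondrocyte markers over all annotated nuclei summed to 1826 and 1418 CPM in replicate 1 and to 1158 and 1396 CPM in replicate 2. Osteoblast and hypertrophic chondrocyte markers did not fall in both genotypes. Over all annotated nuclei osteoblast markers summed to 7941 and 6943 CPM in replicate 1 and to 6916 and 7579 CPM in replicate 2. Hypertrophic chondrocyte markers summed to 560 and 477 CPM, then to 373 and 523 CPM. The part of these in the members' values was not tested. Has2 (-1.37 ± 0.13) and Fbln2 (-1.05 ± 0.10), Adamts15 (-1.04 ± 0.16), Kera (-3.15 ± 0.33) and Col3a1 (-1.10 ± 0.11) of the fixed lists were also called lower, while no list gene was called higher there.

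In the CT groups 4 of 10 members were called lower in replicate 2, beside 4.62% of all 15889 genes. They were Epyc (-1.23 ± 0.12, edgeR adjusted p = 4.93e-05), Lum (-1.19 ± 0.12, adjusted p = 5.44e-05), Vcan (-1.04 ± 0.17, adjusted p = 0.00149) and Aspn (-0.88 ± 0.11, adjusted p = 0.000361). In the CP groups 2 of 10 were, beside 1.36% of all 17894 genes, namely Aspn (-0.62 ± 0.10, adjusted p = 0.032) and Vcan (-0.60 ± 0.09, adjusted p = 0.027).

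The number of CT1 nuclei also differed between experiments. CT1 held 1315 and 878 nuclei in the replicate 1 libraries (WT and Tbx1+/-) and 332 and 118 in the replicate 2 libraries, and 54.0%, 43.2%, 40.1% and 14.0% of all annotated Vcan UMIs lay in CT1 nuclei. Within CT1 Vcan was 0.21 higher in replicate 2 on the log2 scale between the WT libraries and 0.16 lower between the Tbx1+/- libraries. Outside CT1, Vcan was lower in replicate 2 in both genotypes in 12 of the other 14 types, all but CT3 and matured chondrocytes, with log2 ratios of -0.08 (WT) and -0.68 (Tbx1+/-) in CT2, -0.30 and -1.10 in CT4 and -0.54 and -0.83 in osteoclasts. Lum and Epyc were lower in replicate 2 in both genotypes in all 15 types, osteoclasts included, and Aspn in 14. In osteoclasts, nuclei not expected to make it, Lum was at 180 CPM in WT replicate 1 and 68.9 CPM in WT replicate 2, and at 132 and 77.4 CPM in the Tbx1+/- libraries. The part of that floor and of the CT1 share in the difference between experiments was not tested.

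**Figure D5:**
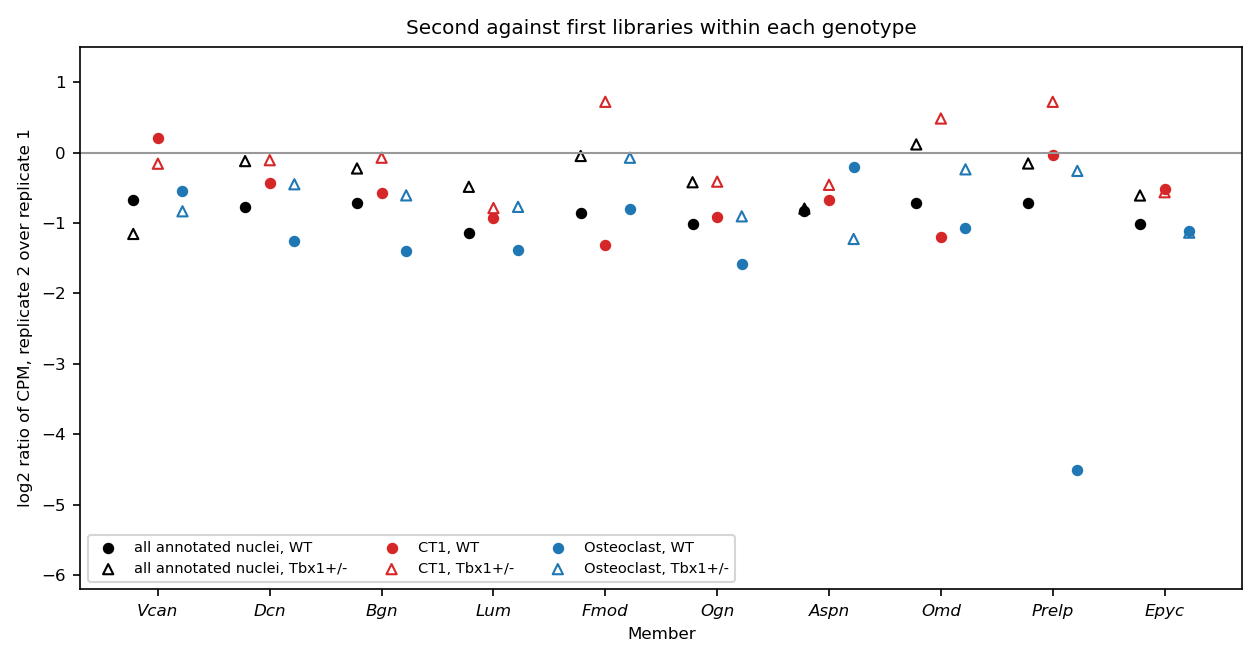
Log2 ratio of CPM, replicate 2 over replicate 1, for each member within WT (filled circles) and Tbx1+/- (open triangles), over all annotated nuclei (black), in CT1 (red) and in osteoclasts (blue). Vcan lies near 0 in CT1 and below 0 in osteoclasts in both genotypes, Lum and Epyc lie below 0 in all 3, and the lowest point, Prelp in WT osteoclasts, compares 1 UMI with 21.

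Bgn is X-linked, and the pools differed in sex-linked transcripts. Xist, named here after its values were seen, was 520, 668, 954 and 1227 CPM over all annotated nuclei, and Bgn 257, 202, 157 and 173 CPM. The part of the pools' sex in the Bgn values was not tested.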

How the data were processed

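The authors sequenced nuclei from frozen PTB and PF/F with a 10x Genomics kit, mapped reads to mm10 with Cell Ranger 7.0.0 in intron mode, removed nuclei under 1000 genes and outliers over 3 median absolute deviations, corrected for ambient RNA with SoupX and named Louvain clusters by label transfer and curation. The deposited matrices hold raw UMI counts per gene and barcode from before SoupX and before those limits, so free RNA is still in them. The PTB annotation names 31076 of 63177 barcodes. The stated limits were rebuilt here, and 9321 to 17570 barcodes a library pass them, in all more than the study kept. Unannotated nuclei can therefore include some that the study removed. Only annotated nuclei were used, except where unannotated ones are named. Doublets were not called here.

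Counts were summed per library and type and given as CPM. The CPM and log2 values were computed here. Genotype, genotype by class and replicate number were tested on sums with edgeR 4.0.16 quasi-likelihood fits (filterByExpr, TMM, R 4.3.3, Benjamini-Hochberg over all genes of a fit), called at adjusted p under 0.05 and over 1.5-fold, on types with at least 20 nuclei in each library. The tests were checked on simulated counts. Alternatives were DESeq2 1.42.0, RLE factors, no filter, nuclei with at least 2000 genes, the 8% of nuclei with most UMIs left out, single libraries left out, and the replicate number as a block. Same-numbered libraries come from 1 experiment and deviated together (r = 0.48 across 20250 genes). Same-genotype libraries differed beyond counting noise (chi-square per degree of freedom 58.6 and 31.4). Depth and nuclei per type limit low genes such as Prelp.

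The members and lists were chosen with earlier results of these data known. Named genes are the members, Tbx1, the 3 genes most like each member in pattern, up to 3 called genes of each of 6 fixed lists, and 15 partner genes. Others, such as Cenpp and Xist, were named after their values were seen. Coordinates come from GENCODE vM21 (GRCm38), which matched 99.6% of the gene identifiers.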

Additional observations from a re-analysis of the deposited data

Results flagged for a closer look

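Epyc reached 257 ± 65.2 CPM (206 to 352 CPM, n = 4 libraries) in 1255 unannotated PTB nuclei that held epithelial markers, which no comparison used. In each of the 4 libraries this was above every one of the 15 annotated types, whose highest mean was 111 ± 30.3 CPM in CT1. Unannotated nuclei with immune markers had 61.6 ± 26.7 CPM, those with neuron and glia markers 167 ± 27.3 CPM, and the 8119 nuclei assigned to no marker list 155 to 185 CPM, so means above that of CT1 were also found outside the epithelial group. The other members showed no such excess in the epithelial group, where Vcan had 108 ± 38.2 CPM and Dcn 182 ± 71.2 CPM.

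Omd over all annotated nuclei had 1 library far from the other 3. It stood at 116 CPM in WT replicate 1 and at 70.0, 70.7 and 75.8 CPM in the others, a gap of 0.873 of the whole range. Of 20 member levels examined in this way 1 had a gap past the 95% critical value of Dixon's test, which chance alone passes in about 1 of 20.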

How the results depend on the processing

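No member was called by genotype over all annotated nuclei under any of the alternatives, and over the 15 types only leaving out 1 library gave calls (0 to 3). The replicate block gave 0 calls in both, with an unadjusted p below 0.05 in 24 of 144 tests instead of 4, where 2.36% to 6.16% of all genes of a type were at that level with the block. Aspn made up 7 of the 24, Vcan 6, and Epyc and Omd 3 each. Ogn made up 2, and Bgn, Dcn and Fmod 1 each, in types that share the same libraries. With the block over all annotated nuclei Vcan was at -0.63 ± 0.13 (edgeR unadjusted p = 0.0019, adjusted p = 0.90) and Aspn at -0.34 ± 0.08 (edgeR unadjusted p = 0.0055, adjusted p = 0.90), and the block changed no call. The interaction of genotype and class went from 0 calls to 1 without the filter on low counts and to 0 to 2 with 1 library left out. Between replicate numbers, 3 members over all annotated nuclei became 5 with DESeq2, with no filter and without the 8% of nuclei with most UMIs, Lum and Ogn being added, while the share of all genes called lower went from 1.04% to 1.53%, 2.97% and 2.01%. In CP, beside 1.36% of all genes, 2 became 1 with DESeq2 (Lum in place of Vcan and Aspn, 0.659%), 1 with RLE factors (Vcan, 0.447%) and 0 with nuclei of at least 2000 genes (26 of 17476 genes called lower), and 3 with no filter (2.52%) and without the 8% of nuclei with most UMIs (2.5%), the same alternatives that gave 5 instead of 4 in CT (3.89% and 3.85% against 4.62%). The cause was not tested. Leaving out a library left no residual degrees of freedom for that test, so it was not run.

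The type with the highest level was the same in 8 to 10 of the 10 members under every alternative.

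Some genotype changes, none of them called, took the opposite sign. With 1 library left out in turn, the log2 change over all annotated nuclei ran from -0.80 to 0.14 for Aspn, -0.47 to 0.26 for Bgn, -0.63 to 0.16 for Dcn, -0.59 to 0.44 for Epyc, -0.56 to 0.32 for Fmod, -0.74 to 0.41 for Lum, -0.76 to 0.27 for Ogn, -0.68 to 0.053 for Omd and -0.32 to 0.41 for Prelp. In the type with the highest level it ran from -0.51 to 0.25 for Bgn, -0.59 to 0.47 for Dcn, -0.80 to 0.34 for Lum, -0.50 to 0.061 for Ogn and -0.69 to 0.51 for Prelp. The lowest values came without WT replicate 2, except that of Aspn (without Tbx1+/- replicate 1), and the highest without WT replicate 1, except Prelp in matured chondrocytes (without Tbx1+/- replicate 2). Prelp over all annotated nuclei was 0.026 with nuclei of at least 2000 genes and 0.019 with the replicate block.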

Other observations

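The study's stated limits, as rebuilt here, pass more nuclei than the study kept. Among unannotated nuclei within them, Bgn was at 176 ± 54.8 CPM in those with endothelial markers (2688 nuclei) and 162 ± 40.5 CPM in those with immune markers (1910 nuclei). It was at 127 ± 83.9 CPM in those with muscle markers (502 nuclei) and 94.9 ± 42.5 CPM in those with neuron and glia markers (5196 nuclei). These ranges overlapped. Within each library the endothelial (250, 183, 138 and 132 CPM) and immune (205, 184, 115 and 143 CPM) groups were above the neuron and glia group (147, 112, 55.6 and 65.1 CPM).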
